A study of Mus musculus with 6 samples.

Results

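The genes described here are the regulators of pre-mRNA splicing of the SR protein, hnRNP and CLK families, with subunits of the SF3A and SF3B complexes and related cofactors. They were chosen by symbol: protein-coding mouse genes named Srsf, Hnrnp, Clk1 to Clk4, Sf3a or Sf3b with a number, Srrm1, Srrm2, Tra2a, Tra2b, and Rbm5, Rbm10, Rbm17, Rbm22, Rbm25 or Rbm39. Of 55487 gene identifiers, 56 matched these names, 2 of them pseudogenes, which left 54 genes. They comprise 4 CLK kinases, 13 SR and Tra2 genes, 20 hnRNP genes, 9 SF3A and SF3B subunits and 8 Srrm and Rbm genes. All 54 passed the filter on low counts that left 12486 genes to test.

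RNA sequencing compared naive CD4+ T cells (TN cells) of the mesenteric lymph node (mLN, 3 libraries), the node that drains the gut, with TN cells of the spleen (3 libraries). Both groups were freshly prepared, without treatment, from wild-type (WT) mice of strain C57BL6/J. The labels used here give no age, no sorting gate and no statement of whether libraries came from separate mice, so p-values reflect the spread among the 6 libraries alone, and that spread could be purely technical. The libraries hold 13205499 to 20054205 expected counts in mLN and 14224966 to 17862485 in spleen, and values are given as CPM, a gene's counts per unit of library size after TMM scaling. A count of 0 allows up to 3 counts, which is 0.150 to 0.227 CPM depending on the library and covers only counting error. The labelled cell type was borne out by its markers: Cd4 and Cd3e were high in every library, and 10 naive CD4 T cell markers summed to 5815 to 5940 CPM in mLN and 6373 to 6628 CPM in spleen. Several lists of markers of other cells were lower in mLN. The 6 B cell genes, mostly Ighm, summed to 339 to 367 CPM in mLN and 494 to 524 CPM in spleen. The 7 monocyte and macrophage genes summed to 11.3 to 12 CPM in mLN and 42.1 to 42.9 CPM in spleen, with Fcgr1 at 0 in all mLN libraries. The 4 neutrophil genes summed to 0.150 to 0.941 CPM in mLN and 25.3 to 33.4 CPM in spleen, with Retnlg at 0 in all mLN libraries. The sums of 4 dendritic, 4 NK, 4 stromal and 5 memory and effector T cell genes were also lower in every mLN library, while those of 2 CD8 T cell genes (12.5 to 20.4 CPM in mLN, 16.0 to 17.8 CPM in spleen), 4 regulatory T cell genes (4.48 to 8.02 CPM in mLN, 6.98 to 8.62 CPM in spleen) and 4 erythroid genes overlapped. The stromal sum was nearly all Pecam1 (means 208 CPM in mLN, 242 CPM in spleen). Col1a1, Col3a1 and Pdgfrb were too low to test, and Col1a1 had the higher mean in mLN (0.485 against 0.0604 CPM). The memory and effector sum was mostly Cd44 (means 23.2 CPM in mLN, 29.6 CPM in spleen). The mitochondrial share of counts was 2.12% to 2.43% in mLN and 3.70% to 4.11% in spleen. The part that these other cells or RNA quality play in the values below was not tested. In bulk RNA, fewer cells of a type and less RNA per cell cannot be told apart.

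In splicing, introns are cut out of a transcript by the spliceosome, a machine of small nuclear RNAs and proteins. SR proteins bind exons through an RNA recognition motif and recruit the spliceosome through a domain rich in arginine and serine. hnRNP proteins coat nascent RNA and often repress the exons that SR proteins promote. CLK kinases phosphorylate SR proteins in the nucleus, which releases them from storage speckles. SF3A and SF3B are protein complexes within the U2 particle, which marks the branch point of each intron. In T cells the balance of these factors sets the isoforms of surface proteins such as CD45. Many of these genes also make transcripts that keep an intron or carry a premature stop: the 54 genes have 495 annotated transcripts in the files, of which 65 are marked as nonsense-mediated decay and 167 as retained intron, and 44 of the 54 genes have at least 1 such transcript.

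The 54 genes together took 2.06%, 2.06% and 1.99% of counts in the mLN libraries, against 2.05%, 2.02% and 1.99% in the spleen libraries. The totals of the groups overlapped. The CLK kinases took 0.0877%, 0.0861% and 0.0807% in mLN, against 0.104%, 0.102% and 0.101% in spleen. Every mLN library was below every spleen library. SR and Tra2 genes took 0.370%, 0.373% and 0.353% in mLN, against 0.388%, 0.384% and 0.380% in spleen, again without overlap. The Srrm and Rbm genes went the other way, with 0.337%, 0.341% and 0.328% in mLN and 0.304%, 0.297% and 0.292% in spleen. The hnRNP genes took 1.02%, 1.01% and 0.992% in mLN and 1.01%, 1.00% and 0.987% in spleen, and the SF3 subunits 0.244%, 0.254% and 0.237% in mLN and 0.244%, 0.238% and 0.232% in spleen. Both of these overlapped between the tissues. These shares follow the longest and most abundant genes of each group and were not tested.

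**Figure D1:**
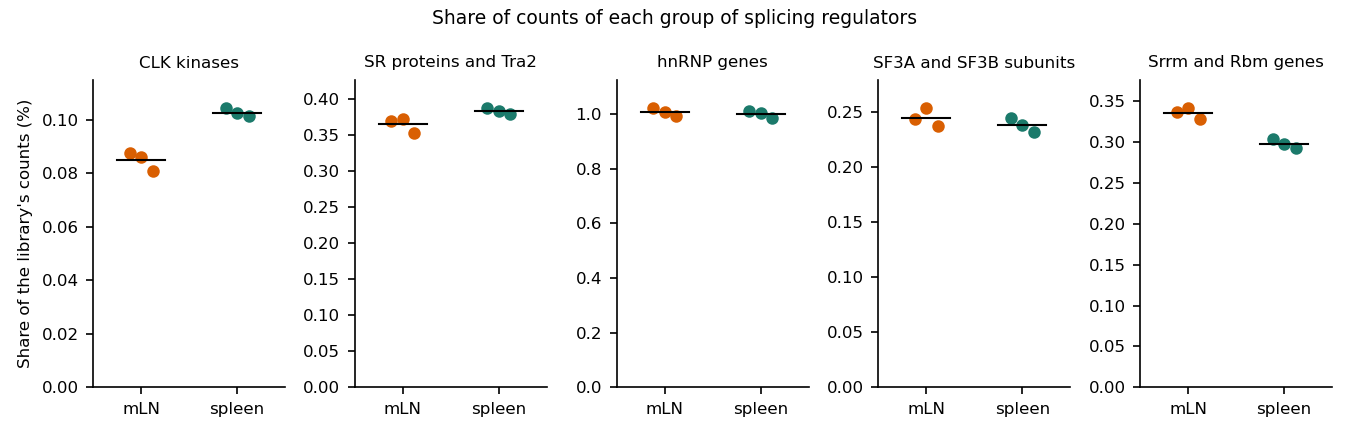
Share of each library's expected counts (%) taken by the 5 groups of splicing regulators, with 1 point per library (3 mLN, 3 spleen) and the mean as a bar. Each panel has its own axis from 0; the CLK and SR shares are below those of spleen in every mLN library, the Srrm and Rbm shares above.

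Gene by gene, 16 of the 54 genes were higher in mLN TN cells and 13 were lower, with adjusted p under 0.05 (edgeR's quasi-likelihood test, Benjamini-Hochberg over 12486 genes). That is 29.6% higher and 24.1% lower, against 16.1% higher and 13.5% lower among all genes tested. The median log2 fold change, mLN over spleen, was 0.05 for the 54 genes and -0.01 for all genes. In CPM, 22 genes had all mLN libraries above all spleen libraries, where the share among all genes was 21.5%, and 16 had them all below, where it was 20.3%. By group, 0 CLK kinases were higher and 2 lower, 2 SR genes higher and 3 lower, 7 hnRNP genes higher and 5 lower, 4 SF3 subunits higher and 2 lower, and 3 Srrm or Rbm genes higher and 1 lower. Of the 29 calls, 13 higher and 8 lower were made under all 16 settings on counts that were tried, and 10 higher and 7 lower were also made on transcript abundance per length (TPM) centred on each library's median. On that centred scale alone 6.39% of all genes were higher and 7.58% lower. No share of all genes called under the same combination of settings is given here, so the counts of lasting calls have no background beside them. The 10 higher were Sf3a1, Sf3b2, Sf3b4, Srrm1, Srrm2, Hnrnpab, Hnrnpd, Hnrnpl, Hnrnpul1 and Hnrnpul2, and the 7 lower were Clk1, Srsf3, Srsf7, Sf3a3, Rbm39, Hnrnpa1 and Hnrnpa3.

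Directions depend on the scale. On TPM that are not centred, the median of all genes is 0.21 higher in mLN on the log2 scale, and on that scale 31 of the 54 genes were higher and 1 lower, where 22.1% of all genes were higher and 3.08% lower. Directions given below are on TMM-scaled counts unless another scale is named, and there the median of all genes is -0.01. Srsf5, Rbm39, Hnrnpa1, Hnrnpa3, Hnrnpc, Hnrnpf and Hnrnpk were each lower on counts. On TPM that are not centred they lay between 0.01 and 0.12 above spleen on the log2 scale. A further 12 genes that did not pass the test changed sign on that scale.

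**Figure D2:**
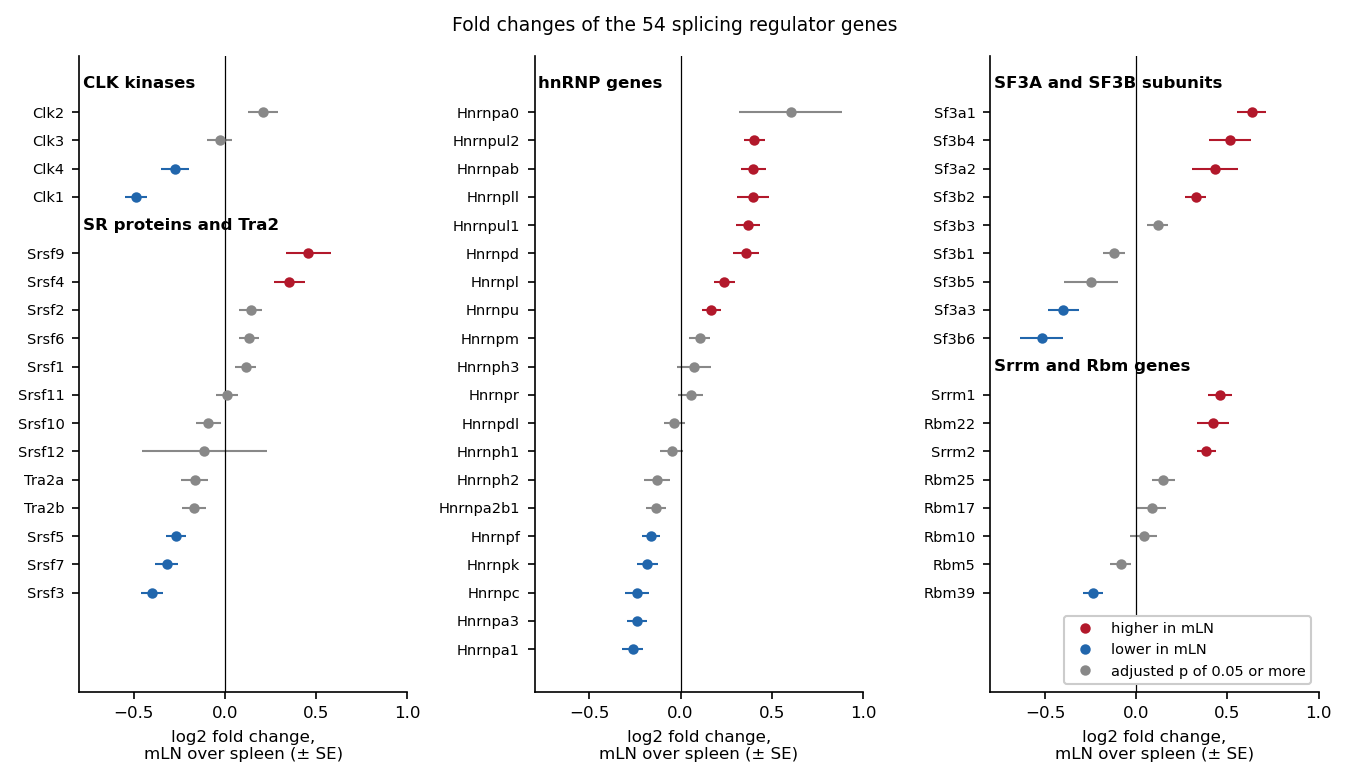
Log2 fold change, mLN over spleen, of the 54 genes by group, on the CPM scale of edgeR, with bars for ± 1 standard error (SE). Red and blue points passed the test (adjusted p under 0.05) as higher and lower in mLN; Clk1 lies at -0.49 and Sf3a1 at 0.63, and on TPM that are not centred the blue points of Srsf5, Rbm39, Hnrnpa1, Hnrnpa3, Hnrnpc, Hnrnpf and Hnrnpk change sign.

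Among the CLK kinases, Clk1 and Clk4 were lower in mLN. Clk1 (mm10 chr1:58410189-58424066, minus strand) encodes the kinase that gives the family its name and is known to autoregulate its own intron retention. It had 455, 443 and 403 CPM in mLN, against 617, 608 and 599 CPM in spleen. The groups did not overlap, and the lowest spleen library was above the highest mLN library. The means were 434 ± 27.2 CPM in mLN and 608 ± 8.75 CPM in spleen (SD, n = 3 each), a fold of 0.713 and a log2 change of -0.49 (SE 0.0585, edgeR adjusted p = 2.31e-06). Clk1 was the 1 gene of the 54 called lower on TPM without centring, where its log2 change was -0.27. Clk4 (chr11:51261730-51281766, plus strand), its closest relative, had 167, 164 and 140 CPM in mLN, against 198, 197 and 174 CPM in spleen. The groups did not overlap, and the log2 change was -0.27 (SE 0.0778, edgeR adjusted p = 0.0101). That call was lost without spleen replicate 2 (adjusted p = 0.0566), on centred TPM (0.0800), with the length trend removed (0.157) and with the GC trend removed (0.0529). On TPM without centring the log2 change of Clk4 was -0.00029 (limma adjusted p = 0.998).

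Clk2 and Clk3 did not pass the test. Clk2 had 99.3, 106 and 116 CPM in mLN, against 91.3, 90.4 and 96.6 CPM in spleen. Its groups did not overlap, the fold was 1.15 and the edgeR adjusted p was 0.0608. That p was 0.0382 without mLN replicate 1 and 0.0454 with the length trend removed, but 0.273 without mLN replicate 3 (log2 change 0.13, against 0.21 with all libraries) and 0.249 with the GC trend removed. Clk3 had 147, 140 and 142 CPM in mLN, against 143, 142 and 152 CPM in spleen, and these overlapped (edgeR adjusted p = 0.799). Per length, Clk1 was the most abundant CLK transcript, at 382 ± 29.5 TPM in mLN and 461 ± 11.9 TPM in spleen (SD, n = 3 each). Clk1 made up 52.5%, 51.2% and 52.5% of the summed CLK TPM in mLN, against 58.1%, 58.3% and 59.9% in spleen. Clk2 made up 10.6%, 12% and 12% in mLN, against 8.06%, 7.65% and 7.88% in spleen. The mix of CLK transcripts thus separated the tissues without overlap, on a ratio that does not depend on how whole libraries are scaled. The ratio was not adjusted for base composition, and mean transcript GC content was 39.8% for Clk1 and 54.4% for Clk2. This and the other ratios between members were chosen after their values were seen and carry no test.

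Among the SR genes that passed the test, 3 abundant members were lower in mLN and 2 scarcer ones higher. Srsf3 (chr17:29032628-29043373, plus strand), the smallest SR protein, also acts in mRNA export. It had 379, 355 and 328 CPM in mLN, against 474, 478 and 448 CPM in spleen. All mLN libraries were below all spleen libraries, with a fold of 0.758 (SE of the log2 change 0.0618, edgeR adjusted p = 4.28e-05). Srsf7, its closest relative, had 298, 330 and 286 CPM in mLN, against 386, 371 and 383 CPM in spleen. It was lower by a fold of 0.802 without overlap (edgeR adjusted p = 4.75e-04). Srsf5, the SR gene with the highest TPM, had 752, 725 and 693 CPM in mLN, against 885, 877 and 846 CPM in spleen. The fold was 0.832 without overlap (edgeR adjusted p = 7.95e-04), and the adjusted p on centred TPM was 0.0538. On TPM without centring Srsf5 was 0.07 higher on the log2 scale (limma adjusted p = 0.394).

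Srsf4 (chr4:131873617-131901706, plus strand), a long SR protein, had 113, 113 and 127 CPM in mLN, against 88.2, 87.1 and 101 CPM in spleen. It was higher by a fold of 1.28 without overlap (edgeR adjusted p = 0.00283; 0.0589 on centred TPM). Srsf9 had 33.4, 37.8 and 37.8 CPM in mLN, against 27.3, 22.9 and 29.3 CPM in spleen. Its fold was 1.37 without overlap (edgeR adjusted p = 0.00674), and the call was lost without spleen replicate 2 (0.0675). The ratio of Srsf3 to Srsf4 TPM was 2.63, 2.58 and 2.10 in mLN, against 3.67, 4.19 and 3.43 in spleen, without overlap. The other 8 SR and Tra2 genes, Srsf1, Srsf2, Srsf6, Srsf10, Srsf11, Srsf12, Tra2a and Tra2b, did not pass the test, with folds from 0.890 to 1.1. Srsf1, Srsf2 and Srsf6, at means of 214, 299 and 251 TPM, had all mLN libraries above all spleen libraries in CPM. With the GC trend removed each was called higher (edgeR adjusted p = 6.60e-04, 0.00451 and 0.00636), which gave 5 SR genes higher and 3 lower. Srsf2 was also called higher with the length trend removed (0.0052), where 3 SR genes were higher and 3 lower. Srsf12 was the least abundant of the 54 genes, at a mean of 2.97 TPM over the 6 libraries, and its test is the least precise (SE 0.342).

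Promoters were compared because these genes moved in both directions within families. RefSeq (GRCm38.p6) gave 63 promoter windows, from 250 bases before to 50 after a start, for 48 of the 54 genes. The ETS-type motif CCGGAAG, on either strand, was in 28.6% of these windows and in 8.86% of all 32851 promoter windows. Its 13 genes include 5 higher and 5 lower in mLN. All 54 genes gave 16 higher and 13 lower, and all genes tested 16.1% and 13.5%. Whether the motif goes with the calls was not tested. GGGCGG was in 73.0% of the windows against 35.7% of all, CCAAT in 47.6% against 37.4%, TATAAA in 9.52% against 13.6%, and the cyclic AMP element TGACGTCA in 3.17% against 1.79%. The cyclic AMP element was in the windows of Clk4 and Tra2a. A match is a description of the letters and not a site of binding. The background was every promoter window, and no comparison was made with the windows of the tested genes alone. The windows below are shown for a CLK kinase and an SR gene lower in mLN and for SF3A partners that moved in opposite directions (Srsf5 turns on TPM without centring); capitals mark matches to CCGGAAG, TGACGTCA or TATAAA on either strand, all windows are on the plus strand.
Clk4, chr11:51262864-51263163: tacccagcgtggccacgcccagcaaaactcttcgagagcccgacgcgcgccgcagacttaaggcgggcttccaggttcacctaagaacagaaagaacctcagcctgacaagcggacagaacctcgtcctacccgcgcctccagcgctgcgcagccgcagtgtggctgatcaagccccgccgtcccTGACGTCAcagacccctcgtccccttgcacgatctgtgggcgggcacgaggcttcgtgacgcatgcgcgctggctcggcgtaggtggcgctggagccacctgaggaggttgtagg
Srsf5, chr12:80945249-80945548: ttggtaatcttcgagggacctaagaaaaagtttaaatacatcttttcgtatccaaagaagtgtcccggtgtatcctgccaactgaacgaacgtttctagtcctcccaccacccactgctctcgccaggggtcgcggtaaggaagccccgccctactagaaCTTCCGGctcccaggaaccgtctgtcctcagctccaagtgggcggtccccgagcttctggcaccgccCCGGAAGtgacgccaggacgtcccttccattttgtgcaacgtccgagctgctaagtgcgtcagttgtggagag
Sf3a1, chr11:4160104-4160403: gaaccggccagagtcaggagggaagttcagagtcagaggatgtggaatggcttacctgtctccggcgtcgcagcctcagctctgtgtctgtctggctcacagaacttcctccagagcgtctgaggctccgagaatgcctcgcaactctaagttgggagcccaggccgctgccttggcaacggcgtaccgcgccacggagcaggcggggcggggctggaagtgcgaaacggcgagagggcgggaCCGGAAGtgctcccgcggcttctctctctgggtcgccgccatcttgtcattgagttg
Sf3a3, chr4:124714611-124714910: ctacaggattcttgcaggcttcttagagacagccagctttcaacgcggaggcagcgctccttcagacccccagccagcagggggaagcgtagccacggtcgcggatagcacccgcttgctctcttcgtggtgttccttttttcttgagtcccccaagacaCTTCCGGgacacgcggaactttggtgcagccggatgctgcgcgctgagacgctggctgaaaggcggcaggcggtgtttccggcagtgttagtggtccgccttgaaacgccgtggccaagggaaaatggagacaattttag
The Clk4 match starts at -65 from the start, the Srsf5 matches at -90 and -23, the Sf3a1 match at -7 and the Sf3a3 match at -90. Sf3a1 and Sf3a3, which differed in direction, both held an ETS-type match.

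The hnRNP genes divided into 7 higher, 5 lower and 8 not called. Hnrnpul2 (chr19:8820010-8834143, plus strand), a relative of the nuclear scaffold protein hnRNP U, had 394, 399 and 401 CPM in mLN, against 291, 301 and 309 CPM in spleen. The groups stood well apart, with a fold of 1.32 (SE of the log2 change 0.0564, edgeR adjusted p = 1.35e-05). Hnrnpul1, its paralog, had 272, 273 and 292 CPM in mLN, against 201, 213 and 234 CPM in spleen. It was higher by a fold of 1.29 without overlap (edgeR adjusted p = 2.17e-04). Hnrnpab had 323, 314 and 353 CPM in mLN, against 251, 229 and 270 CPM in spleen, a fold of 1.32 without overlap (edgeR adjusted p = 1.26e-04). Hnrnpd, also called AUF1, binds AU-rich elements of cytokine mRNAs. It had 209, 187 and 205 CPM in mLN, against 148, 157 and 163 CPM in spleen, a fold of 1.28 without overlap (edgeR adjusted p = 4.44e-04).

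Hnrnpll and Hnrnpl repress exons of CD45 in T cells. Hnrnpll had 70.6, 68.5 and 72.6 CPM in mLN, against 57.3, 49.2 and 54.4 CPM in spleen. All mLN libraries were above all spleen libraries, with a fold of 1.32 (edgeR adjusted p = 0.0015; 0.0504 on centred TPM). Hnrnpl had 374, 377 and 397 CPM in mLN, against 323, 318 and 331 CPM in spleen, a fold of 1.18 without overlap (edgeR adjusted p = 0.00277). Hnrnpu, the scaffold protein, had 1065, 1065 and 1016 CPM in mLN, against 923, 942 and 936 CPM in spleen. Its fold was 1.12 (edgeR adjusted p = 0.0184), and the call was lost without mLN replicate 1 (0.0933), mLN replicate 2 (0.0600), spleen replicate 1 (0.0959) or spleen replicate 2 (0.0867), with upper-quartile factors (0.0882) and with the length trend removed (0.377).

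The lower hnRNP genes were abundant A-type members and Hnrnpc, Hnrnpk and Hnrnpf. All 5 change sign on log2 TPM without centring, to between 0.01 and 0.12 above spleen. On that scale the limma adjusted p was 0.876 for Hnrnpa1, 0.388 for Hnrnpa3, 0.916 for Hnrnpc and 0.0687 for Hnrnpf. Hnrnpa1, which represses exons and shuttles between nucleus and cytoplasm, had 530, 481 and 491 CPM in mLN, against 617, 612 and 573 CPM in spleen. Its groups did not overlap and its fold was 0.834 (edgeR adjusted p = 0.00155). Hnrnpa3 had 914, 909 and 864 CPM in mLN, against 1090, 1081 and 1002 CPM in spleen, a fold of 0.846 without overlap (edgeR adjusted p = 0.00202). Hnrnpc, which binds runs of uridine, had 388, 365 and 325 CPM in mLN, against 438, 426 and 408 CPM in spleen, a fold of 0.847 without overlap (edgeR adjusted p = 0.00728; 0.0633 on centred TPM and 0.0813 with the length trend removed). Hnrnpk, which binds runs of cytidine, had a fold of 0.882 (edgeR adjusted p = 0.0163) and Hnrnpf, which binds runs of guanine, of 0.893 (0.0189). Both calls were lost without mLN replicate 1 (0.0562 and 0.0618), spleen replicate 1 (0.0751 and 0.0660) or spleen replicate 2 (0.0619 and 0.0801), taking Hnrnpk first. Removing the length trend (0.450 and 0.163) or testing centred TPM (0.298 and 0.0897) also ended both calls, and that of Hnrnpk was lost with the GC trend removed (0.223).

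Hnrnpa2b1, the hnRNP with the highest TPM of the 54 genes, did not pass the test. It had 1328, 1369 and 1243 CPM in mLN, against 1472, 1479 and 1378 CPM in spleen. The groups did not overlap and the fold was 0.910 (edgeR adjusted p = 0.0689; 0.0420 by DESeq2 and 0.0364 by limma-voom). It was 0.0425 without mLN replicate 2, 0.0165 without spleen replicate 3 and 0.0156 with upper-quartile factors. With the length trend removed the log2 change was -0.01 (adjusted p = 0.908), and it turned to 0.03 with the GC trend removed and to 0.14 on TPM without centring. Hnrnpa0 had the widest spread of the hnRNP genes, with 291, 286 and 422 CPM in mLN and 172, 199 and 287 CPM in spleen. The means were 333 ± 77.0 CPM in mLN and 219 ± 60.0 CPM in spleen (SD, n = 3 each), the groups overlapped and the edgeR adjusted p was 0.213. The third library was the highest in both tissues. The remaining uncalled genes, Hnrnpm, Hnrnph1, Hnrnph2, Hnrnph3, Hnrnpr and Hnrnpdl, had adjusted p-values of 0.183 or more.

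The SF3 subunits moved in opposite directions within one complex. Sf3a1 (chr11:4160350-4182541, plus strand) is the largest SF3A subunit. It had 122, 131 and 129 CPM in mLN, against 76.3, 83.6 and 86.5 CPM in spleen. The groups were far apart, with a fold of 1.55 and a log2 change of 0.63 (SE 0.0793, edgeR adjusted p = 3.74e-06). Sf3a3 (chr4:124714776-124732460, plus strand), its partner, had 69.8, 71.6 and 74.0 CPM in mLN, against 100, 86.0 and 98.0 CPM in spleen. It was lower by a fold of 0.757 without overlap (edgeR adjusted p = 0.0011). The ratio of Sf3a1 to Sf3a3 TPM was 0.581, 0.638 and 0.626 in mLN, against 0.275, 0.364 and 0.343 in spleen, without overlap. Sf3a2, the remaining subunit of SF3A, had 56.5, 54.7 and 63.7 CPM in mLN, against 38.7, 36.8 and 54.1 CPM in spleen. Its fold was 1.35 (edgeR adjusted p = 0.0129), and the call was lost without mLN replicate 3 (0.0569), spleen replicate 1 (0.0747) or spleen replicate 2 (0.1) and on centred TPM (0.0664).

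Of the SF3B subunits, Sf3b2 and Sf3b4 were higher and Sf3b6 lower. Sf3b2 had 376, 398 and 407 CPM in mLN, against 315, 301 and 325 CPM in spleen, a fold of 1.25 without overlap (edgeR adjusted p = 2.22e-04). Sf3b4, which binds RNA next to the branch point with Sf3b2, had 53.6, 55.5 and 56.4 CPM in mLN, against 33.3, 35.3 and 47.2 CPM in spleen. Its fold was 1.43 (edgeR adjusted p = 0.00191), and the third spleen library was nearest to mLN. Sf3b6, the branch point subunit p14, had 35.8, 33.7 and 27.9 CPM in mLN, against 43.3, 45.0 and 51.0 CPM in spleen, a fold of 0.698 (edgeR adjusted p = 0.00165; 0.0599 with the length trend removed). Sf3b1, the SF3B scaffold and the SF3 gene with the highest TPM, had 1369, 1408 and 1259 CPM in mLN, against 1526, 1503 and 1359 CPM in spleen. These overlapped and did not pass the test (fold 0.919, log2 change -0.12, edgeR adjusted p = 0.133). Sf3b1 was called lower with the length trend removed (log2 change -0.31, adjusted p = 0.000173), without spleen replicate 3 (0.0167) and with upper-quartile factors (0.0370), while its sign turned with the GC trend removed (0.05) and on TPM without centring (0.18). Sf3b3 and Sf3b5 did not pass either, with edgeR adjusted p-values of 0.149 and 0.232.

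The Srrm genes, which encode large serine and arginine rich cofactors that bridge SR proteins to the spliceosome, were both higher. Srrm2, a core protein of nuclear speckles, had 1383, 1420 and 1409 CPM in mLN, against 1088, 1060 and 1079 CPM in spleen. The libraries of each tissue lay close together and far from the other tissue, with a fold of 1.3 (SE of the log2 change 0.0510, edgeR adjusted p = 7.61e-06). Srrm1 had 200, 207 and 214 CPM in mLN, against 157, 149 and 146 CPM in spleen, a fold of 1.37 without overlap (edgeR adjusted p = 1.99e-05). Rbm22, a protein of the catalytic spliceosome, had 73.0, 75.9 and 75.1 CPM in mLN, against 61.0, 55.5 and 51.0 CPM in spleen, a fold of 1.34 (edgeR adjusted p = 9.88e-04; 0.187 on centred TPM). Rbm39, a cofactor related to U2AF, was the lower one. It had 651, 655 and 608 CPM in mLN, against 775, 753 and 726 CPM in spleen, a fold of 0.849 without overlap (edgeR adjusted p = 0.00253). On TPM without centring Rbm39 was 0.04 higher on the log2 scale (limma adjusted p = 0.636). Rbm25 had 441, 442 and 383 CPM in mLN, against 387, 384 and 369 CPM in spleen, which overlapped (edgeR adjusted p = 0.0793). Rbm5, Rbm10 and Rbm17 had adjusted p-values of 0.290 or more.

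**Figure D3:**
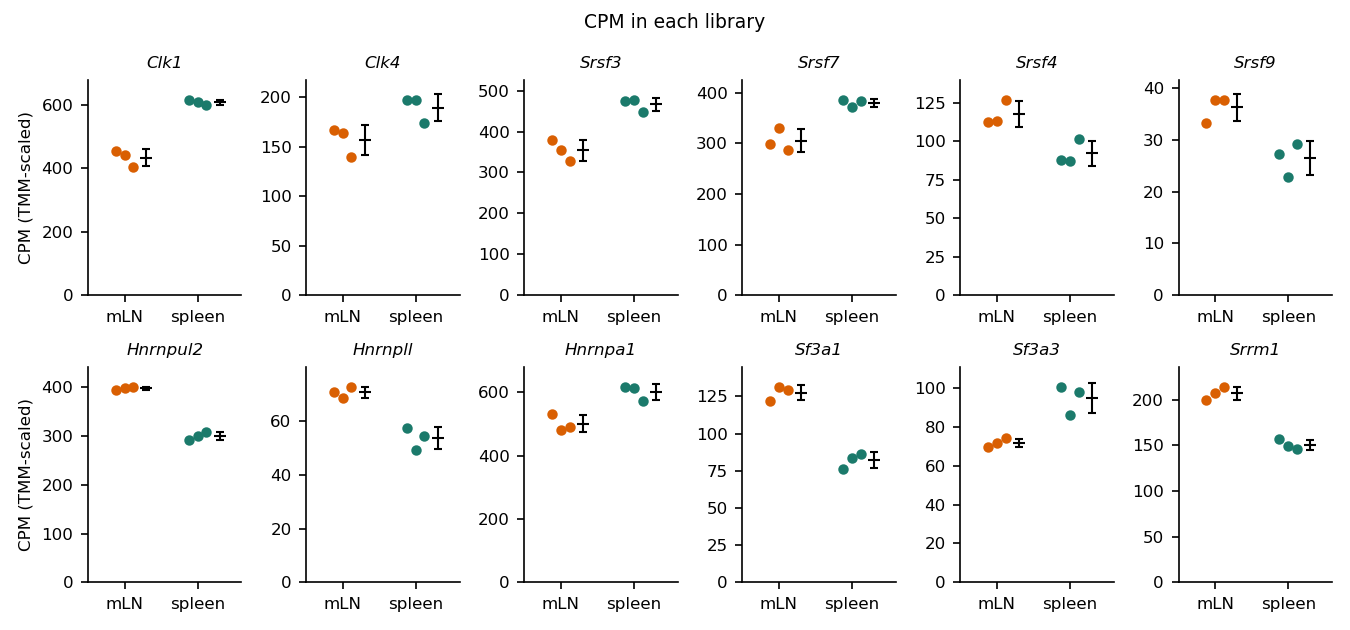
CPM, scaled by TMM factors, of 12 genes in each of the 3 mLN and 3 spleen libraries, with 1 point per library and the mean ± SD beside them. Each axis starts at 0 and has its own range, and groups do not overlap in any panel. The blue-green spleen points of Clk1 lie between 599 and 617 CPM and its mLN points between 403 and 455 CPM. On TPM without centring Hnrnpa1 alone of these 12 changes sign, to a log2 change of 0.0155 (limma adjusted p = 0.876). Clk4 lies at -0.00029 on that scale (limma adjusted p = 0.998).

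Per length, the order of the 54 genes was led by Hnrnpa2b1 at a mean of 1520 TPM over the 6 libraries, Hnrnpf at 1277 TPM, Srsf5 at 756 TPM and Hnrnph1 at 733 TPM. A total of 36 genes were over 100 TPM and 2 were under 10 TPM, Srsf12 and Sf3b5. Hnrnph1 and Hnrnpa3 followed each other closely, at 733 and 730 TPM. These are levels per length, while the CPM above are not.

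RSEM also gives each gene a mean transcript length weighted by the abundance of its transcripts, which changes when the mix of transcripts changes. This readout played no part in the choice of genes. For 52 of the 54 genes it could be tested (limma on log2 length), and 0 were longer and 0 shorter at an adjusted p under 0.05, as were 0 of 10052 genes in all (percent called 0; 3 genes, none of the 54, were shorter when the prior had no trend). At an unadjusted p under 0.05, 2 of the genes were longer and 3 shorter, 9.62% of those tested, against 5.85% of all genes. The 6 genes with the smallest p are given as a description. Srsf3 had a mean length of 2677, 2609 and 2671 nt in mLN, against 2780, 2720 and 2731 nt in spleen, a mean difference of -3.34% (limma adjusted p = 0.773). Its groups did not overlap. Sf3a1 had 4781, 4660 and 4510 nt in mLN, against 4446, 4354 and 4251 nt in spleen, 6.88% longer without overlap (limma adjusted p = 0.775). Sf3b6 had 1199, 1181 and 1152 nt in mLN, against 1133, 1113 and 1065 nt in spleen, also without overlap. Srsf5 had 1595, 1629 and 1608 nt in mLN, against 1710, 1679 and 1631 nt in spleen, also without overlap. Sf3b1 had 4623, 4580 and 4727 nt in mLN, against 4822, 4829 and 4710 nt in spleen, and Hnrnpu 3372, 3407 and 3293 nt in mLN, against 3475, 3399 and 3432 nt in spleen; both overlapped. The mean fragment length was 270, 301 and 268 nt in mLN and 266, 261 and 271 nt in spleen, so mLN replicate 2 stood apart; its part in these lengths was not tested, and leaving it out also gave 0 calls. A p that misses the threshold does not show that the mix of transcripts was alike.

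Fold change followed the base composition and length of the transcripts, in these genes and in all genes. The Spearman rho of log2 fold change with mean transcript GC content was 0.664 over the 54 genes and 0.295 over all tested genes, and with mean transcript length it was 0.280 and 0.370. The genes share the same 6 libraries, so these are descriptions. The median GC content was 50.9% for the 16 higher genes and 44.2% for the 13 lower genes, against 53.5% for all higher and 47.8% for all lower genes. The median length was 2370 nt for the higher and 1736 nt for the lower members. Clk1 has the lowest GC content of the 54, 39.8%, and Sf3a2 the highest, 57.8%. With the length trend removed from each library, 19 of the 54 were higher and 10 lower, where all genes gave 11.7% higher and 11.2% lower, and with the GC trend removed 24 were higher and 11 lower, where all genes gave 17.9% higher and 14.3% lower. Clk1 remained lower and Sf3a1 higher in both, at a log2 change of -0.44 and 0.45 with the length trend removed and of -0.30 and 0.60 with the GC trend removed. What length and base composition contribute to the calls was not tested beyond these fits.

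**Figure D4:**
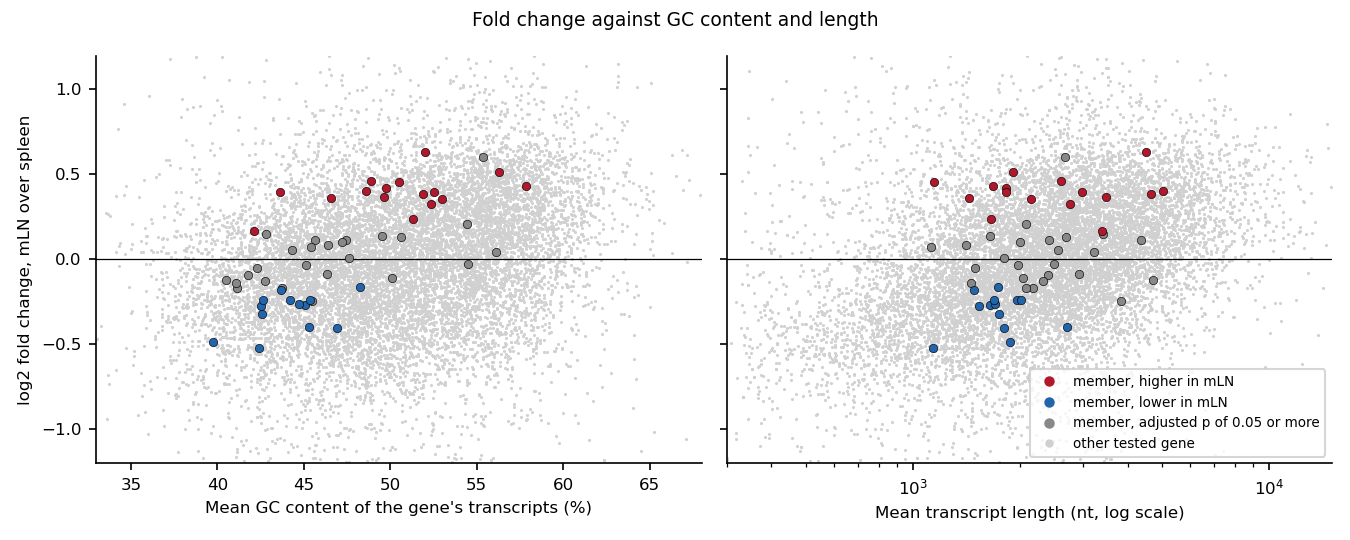
Log2 fold change, mLN over spleen, against the mean GC content (%) and the mean length (nt, log axis) of each gene's transcripts, for the 54 genes (coloured by call) over all other tested genes (grey; those beyond ± 1.2 or the plotted range are not drawn). The blue points, lower in mLN, lie at GC contents up to 48.2%, and the red points reach 57.8%; on TPM without centring several blue points, such as Srsf5 and Hnrnpk, turn positive.

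Lists of the other genes of splicing were counted the same way, beside the 16.1% higher and 13.5% lower of all genes. Of 76 core spliceosome genes, 15 were higher (19.7%) and 18 lower (23.7%), with a median log2 change of -0.07. The counts were 14 higher and 11 lower with the length trend removed, 22 and 19 with the GC trend removed, and 6 and 9 on centred TPM, where all genes gave 6.39% and 7.58%. Prpf8, the central protein of the spliceosome, had 639, 658 and 611 CPM in mLN, against 407, 431 and 403 CPM in spleen, a fold of 1.53 without overlap (edgeR adjusted p = 7.97e-08). Sart1 and Sart3 were higher by folds of 1.48 and 1.52 (edgeR adjusted p = 1.27e-05 and 4.08e-05; Sart1 0.0904 on centred TPM).

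Of 15 tested genes listed as kinases, phosphatases or phosphatase subunits for SR proteins, 7 were higher (46.7%) and 0 lower, and the median log2 change was 0.04. The counts were 4 higher and 2 lower with the length trend removed, 6 and 2 with the GC trend removed, and 4 and 0 on centred TPM. Dyrk1a, which phosphorylates splicing factors, had 157, 159 and 160 CPM in mLN, against 95.3, 105 and 98.3 CPM in spleen, a fold of 1.59 without overlap (edgeR adjusted p = 5.88e-07). Cdk13 was higher by a fold of 1.38 and Ppp1r10 of 1.53 (edgeR adjusted p = 1.57e-05 and 3.37e-05). Srpk1, the main cytoplasmic SR protein kinase, had a fold of 0.999 (edgeR adjusted p = 0.989). Of 70 other splicing regulators, 18 were higher (25.7%) and 12 lower (17.1%), with a median log2 change of 0.07. The counts were 18 higher and 14 lower with the length trend removed, 29 and 9 with the GC trend removed, and 9 and 6 on centred TPM. Sfpq had 492, 497 and 523 CPM in mLN, against 346, 340 and 346 CPM in spleen, a fold of 1.47 (edgeR adjusted p = 2.67e-07). Safb was higher by a fold of 1.38 (1.47e-05; 0.152 on centred TPM). Rbm3, a cold-induced RNA-binding protein, had 224, 207 and 187 CPM in mLN, against 281, 293 and 270 CPM in spleen, a fold of 0.732 (edgeR adjusted p = 4.31e-05).

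Of 21 genes of nonsense-mediated decay and the exon junction complex, which degrade transcripts with a premature stop, 10 were higher (47.6%) and 3 lower (14.3%), and their median log2 change was 0.24. On centred TPM 2 were higher (9.52%) and 1 lower (4.76%), near the shares of all genes. With the length trend removed 6 were higher and 4 lower, and with the GC trend removed 8 and 2. Upf1, the helicase of the pathway, had 161, 163 and 195 CPM in mLN, against 96.3, 103 and 110 CPM in spleen, a fold of 1.68 without overlap (edgeR adjusted p = 7.70e-07). Smg1, the kinase that acts on Upf1, was higher by a fold of 1.31 (2.25e-05; 0.746 with the length trend removed and 0.0661 on centred TPM). Smg6, the endonuclease, was higher by a fold of 1.43 (5.67e-05; 0.0763 on centred TPM).

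Some members share reads or sequence with other genes. Expected counts were not whole in at least 1 library for 18 of the 54 genes, 13 of them called, and exons overlap a gene on the other strand in 19, 11 of them called. Examples are Sf3a2 with Plekhj1 and Hnrnpu with Cox20. The strand setting of the counting is not given in the sources used here, so for these genes a share of the reads may belong to the neighbour. Exons overlap a gene on the same strand in 5 of the 54 genes, where the strand cannot separate the reads. They are Clk4, Sf3b3, Hnrnpa3, Hnrnpm (1169 bases with March2) and Hnrnpul2 (360 bases with AC129217.1).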

How the data were processed

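RNA was measured in 3 mLN and 3 spleen libraries. The authors extracted total RNA with RNAiso PLUS and made libraries with a directional NEBNext Ultra II kit, per the labels' protocols. The submitters' processing notes name STAR, RSEM and the build mm10; for their versions, the annotation and the strand setting, nothing is given in the sources used here. Per gene, the deposited files hold RSEM's expected counts (estimated, not normalized, not always whole), TPM, FPKM and mean transcript lengths in nt, per the file headers. FPKM were used only for their sums, which were 704454 to 711273 in mLN and 828219 to 831266 in spleen.

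Expected counts were rounded to whole numbers, filtered with edgeR's filterByExpr and scaled with TMM. Groups were compared by the quasi-likelihood F test of edgeR (robust, 2-sided), tissue as the only term, Benjamini-Hochberg adjustment over 12486 genes and a threshold of 0.05. The SE of a log2 fold change is its size over the square root of F, and CPM means and SDs are over 3 libraries. Transcript length was tested with limma on log2 values with a trended robust prior. TPM were tested on log2 of TPM plus 1 with limma, with each library centred on its median or not. Fold changes on that scale understate the change of low genes. Symbols, types, lengths and GC content came from GENCODE vM21 (55141 of 55487 identifiers matched), and promoters from RefSeq.

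Members and lists were chosen with earlier results of these data known. Named genes were the CLK kinases, the 5 smallest p and the highest TPM of each other group, the 6 smallest p for length and the 3 smallest p of each other list; other called members are named too. The scripts were tested on simulated data. The tools were edgeR 4.0.16, DESeq2 1.42.0 and limma 3.58.1 under R 4.3.3, and pandas 2.3.3, numpy 2.4.6 and matplotlib 3.10.9 under Python 3.11.15. Replicates of a group differed by more than sampling noise (chi-square over its degrees of freedom, 5.59 to 11.8). Deviations from the group means correlated at 0.00972, -0.00336 and 0.0545 between libraries with the same number, and at -0.0409 to 0.0317 between the others. Correlations this small cannot decide whether the numbers pair the samples, and the labels do not say. Alternatives were other normalizations, tests, filters, pseudocounts, thresholds, trend removal, a replicate block and each library left out.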

Additional observations from a re-analysis of the deposited data

How the results depend on the processing

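Of 54 genes, 16 were higher and 13 lower in mLN (all genes 16.1% and 13.5%). The shares of all genes tested follow in brackets, higher first. With upper-quartile factors the counts were 15 and 17 (13.6% and 16.4%), and with RLE factors 16 and 13 (16.0% and 13.7%). By DESeq2 they were 16 and 15 (16.0% and 14.0%), and by limma-voom 16 and 14 (16.3% and 13.7%). Without a filter they were 16 and 14 (9.86% and 8.61%), and with a stricter filter 16 and 15 (20.9% and 18.7%). At a threshold of 0.01 they were 14 and 10 (11.3% and 8.56%), and on centred log2 TPM plus 0.1 12 and 9 (6.15% and 7.44%). On centred log2 TPM plus 1 they were 12 higher and 8 lower (all genes 6.39% and 7.58%). On log2 TPM plus 1 without centring they were 31 higher and 1 lower (all genes 22.1% and 3.08%), where the median of all genes is 0.21. Removing the length trend gave 19 and 10 (all genes 11.7% and 11.2%) and removing the GC trend 24 and 11 (17.9% and 14.3%). Leaving out each library in turn gave 13 to 17 higher and 10 to 16 lower (all genes 11.6% to 15.3% and 10.3% to 13.3%). With the replicate block they were 24 and 17 (20.6% and 17.1% of all genes), though whether the numbers pair the samples is not known. Of the 54, those called longer or shorter in transcript stayed at 0 under every alternative run, leave-one-out from 0 to 0 included; over all genes, 3 were shorter with no trend of the prior variance. On log2 TPM plus 1 without centring 19 of the 54 genes turned sign, 7 of them called on counts. Among those named by rule or called, the log2 change was 0.0834 for Clk3, 0.18 for Sf3b1, 0.0686 for Srsf5, 0.0409 for Rbm39, 0.14 for Hnrnpa2b1, 0.0155 for Hnrnpa1, 0.0625 for Hnrnpa3, 0.0138 for Hnrnpc, 0.12 for Hnrnpf and 0.11 for Hnrnpk. With the GC trend removed 8 turned, none of them called on counts, and it was 0.0544 for Sf3b1 and 0.0295 for Hnrnpa2b1; with the length trend removed 3 turned and on centred TPM 3, again none called. The cause of the remaining changes was not tested. Depth limits Srsf12 and Sf3b5 most.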
